A study of Mus musculus with 20 samples.

Results

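SOCS1-antibody sites were compared between knockout (KO) and wild-type (WT) mouse macrophages given lipopolysaccharide (LPS), the bacterial cell-wall ligand of TLR4, for 8 h. The comparison takes the peak lists of 2 libraries, 1 of each genotype, out of 12 libraries with peak lists and 20 samples in the series. The WT list holds 13720 sites and the KO list 15633, of 258959 peaks in the 12 lists. A site is a peak in a deposited list, and it was counted as called in both genotypes where a WT and a KO peak overlapped by at least 1 bp. Its strength is the deposited normalised tag count, which the authors set per 10000000 tags of the library. Sites were linked to each protein-coding gene of mm10 whose body or flanking 10 kb held the peak centre.

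The cells were bone-marrow-derived macrophages, grown from marrow for 5 days with M-CSF, given 100 ng/mL LPS for 8 h and fixed briefly with formaldehyde. CUT&RUN, in which an antibody directs a nuclease to cut around the protein it binds in chromatin, was run with a SOCS1 antibody in both genotypes and with IgG as background. The WT strain is written C65BL6 in the design text. That text gives the KO gene as NOS1 although the series title concerns SOCS1, and which of them the cells lack cannot be read from the lists. Each list was called against the IgG library of its own genotype and treatment, and 1 library a group means that the spread between cultures or animals cannot be estimated. No test was therefore made. Intervals below are exact 95% intervals that cover counting error only, and a site that was not called may still be bound.

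SOCS1 is an inducible brake on cytokine signalling. It binds JAK kinases through its SH2 domain, blocks them through a kinase inhibitory region and recruits a ubiquitin ligase through its SOCS box, which limits STAT activation downstream of interferons. In macrophages it is induced by interferon and LPS, and it has also been described in the nucleus, where it can act on the NF-kB subunit p65.

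Facts of the libraries bear on every KO to WT ratio. Depth was 9510186 tags in WT and 7771224 in KO. The authors' caller set a peak width of 260 bp in WT and 375 bp in KO from estimated fragment lengths of 204 and 374 bp, and 3.3% and 5.11% of tags lay in peaks. The lowest normalised tag count was 8.41 in WT and 10.3 in KO, so weaker sites could not be called. IgG tags stood at their floor in 31.2% of WT and 35.3% of KO peaks. Width, fragment length and the share of tags in peaks thus all differed between the libraries, and genotype and library cannot be told apart.

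The promoters of 6 genes show where the peaks lay against the start site. They were chosen after their values were seen, as a pair called in both genotypes (Socs1 and Cish), a pair called over the promoter in WT only (Irf9 and Isg15) and a pair called there in KO only (Stat5a and Ifit2). Each line gives the 250 bases before the start site, 5′ to 3′ on the gene's strand, from the RefSeq promoter table of mm10. Capitals mark matches to 5 motifs searched on both strands: GAS (TTCNNNGAA), the STAT site; ISRE (GAAA, any 2 bases, GAAA), the site of ISGF3 and IRFs; kappaB (GGGA, any 4 bases, CC); AP-1 (TGANTCA); and ETS (GAGGAAG). A match is a description of the letters, not a bound site.
Socs1: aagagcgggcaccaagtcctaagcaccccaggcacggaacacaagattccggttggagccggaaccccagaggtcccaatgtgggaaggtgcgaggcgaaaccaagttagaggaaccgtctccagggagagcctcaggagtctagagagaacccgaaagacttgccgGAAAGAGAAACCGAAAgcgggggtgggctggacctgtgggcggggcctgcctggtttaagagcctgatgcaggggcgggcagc
Cish: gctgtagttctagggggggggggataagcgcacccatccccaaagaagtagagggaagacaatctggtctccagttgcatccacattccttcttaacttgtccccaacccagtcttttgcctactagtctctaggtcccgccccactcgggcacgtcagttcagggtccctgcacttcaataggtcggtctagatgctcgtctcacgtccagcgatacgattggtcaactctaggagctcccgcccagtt
Irf9: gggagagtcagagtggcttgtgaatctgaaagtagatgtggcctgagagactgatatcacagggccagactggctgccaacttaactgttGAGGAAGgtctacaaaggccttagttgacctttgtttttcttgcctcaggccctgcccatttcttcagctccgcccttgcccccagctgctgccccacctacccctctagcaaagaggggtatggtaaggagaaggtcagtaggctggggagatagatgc
Isg15: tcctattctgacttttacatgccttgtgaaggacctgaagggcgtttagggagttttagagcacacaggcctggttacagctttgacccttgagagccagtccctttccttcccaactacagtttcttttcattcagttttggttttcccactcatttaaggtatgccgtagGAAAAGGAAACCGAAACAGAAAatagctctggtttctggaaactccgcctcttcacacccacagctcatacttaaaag
Stat5a: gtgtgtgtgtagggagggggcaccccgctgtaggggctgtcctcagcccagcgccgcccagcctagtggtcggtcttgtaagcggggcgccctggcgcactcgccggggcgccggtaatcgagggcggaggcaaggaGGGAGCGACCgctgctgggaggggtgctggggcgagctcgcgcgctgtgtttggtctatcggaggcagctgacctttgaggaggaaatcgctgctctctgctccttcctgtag
Ifit2: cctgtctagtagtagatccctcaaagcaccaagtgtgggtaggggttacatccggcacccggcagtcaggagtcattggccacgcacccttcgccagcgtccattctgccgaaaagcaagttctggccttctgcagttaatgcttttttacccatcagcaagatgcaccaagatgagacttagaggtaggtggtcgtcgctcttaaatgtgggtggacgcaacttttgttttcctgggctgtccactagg

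The Socs1 window is chr16:10785537-10785786 on the minus strand. The WT peak at chr16:10785638-10785898 covers 149 of its bases and the KO peak at chr16:10785688-10786062 covers 99. Overlapping ISRE matches begin at positions -83 and -77 from the start site, and neither peak reaches them. The normalised tag count was 38.9 in WT and 99.1 in KO, a ratio of 2.55 (1.7 to 3.88). A KO peak here shows that this stretch of Socs1 was present in the KO cells.

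Cish encodes another SOCS protein, which curbs STAT5 signalling. Its window is chr9:107296409-107296658 on the plus strand, holds none of the 5 motifs in the printed bases and has 107 bases under the peak of either genotype (WT chr9:107296255-107296515, KO chr9:107296141-107296515). The count was 42.6 in WT and 97.2 in KO, a ratio of 2.28 (1.53 to 3.4). With the 50 bases after the start site included, the Cish promoter does hold a GAS match. Both promoters thus carried a site in each genotype with the higher count in KO.

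Irf9 encodes the DNA-binding subunit of ISGF3. Its window is chr14:55604329-55604578 on the plus strand, and the WT peak at chr14:55604163-55604423 (59.4) covers 95 bases, among them 5 of the 7 of an ETS match. No KO peak at 8 h was linked to Irf9, and the nearest lay 12950 bp away. The gene was called with SOCS1 antibody in untreated KO cells (77.0) and in WT cells at 30 min (74.9), and with p65 antibody at 8 h in WT (60.0) and KO (91.8).

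Isg15, a ubiquitin-like antiviral protein, has 3 overlapping ISRE matches beginning at positions -78, -72 and -66 from its start site. The window is chr4:156200819-156201068 on the minus strand. The WT peak at chr4:156200879-156201139 (28.4) covers the outer pair of matches whole and 6 of the 10 bases of the innermost. The KO list has its Isg15 site 2151 bp downstream of the start site (54.0), over a weaker WT site (22.1).

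Stat5a, which transmits GM-CSF and other cytokine signals, had the reverse arrangement. The KO peak at chr11:100860431-100860805 (47.6) covers 53 bases of the window chr11:100860234-100860483 on the plus strand, clear of its kappaB match at position -113 from the start site. WT and KO shared a site inside the gene at 15.8 and 38.6. Ifit2, an interferon-induced inhibitor of viral translation, had a KO peak at chr19:34550679-34551053 (67.6) over 216 bases of its window chr19:34550838-34551087 on the plus strand, whose printed bases hold none of the 5 motifs. The same KO peak, which begins at 34550679, reaches only part of the window of a second Ifit2 start site, at position 34550694. That window holds GAS, kappaB and ETS matches, and whether they lie under the peak was not examined. Shared sites of Ifit2 lay elsewhere, at 41.0 and 64.3 within the gene and at 30.5 and 74.6 near Ifit3.

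Fewer than 1 in 2 sites of either list were called in the other. Of the WT sites, 5745 (41.9%, 41.0 to 42.7) overlapped a KO peak, and of the KO sites, 5742 (36.7%, 36 to 37.5) overlapped a WT peak. This leaves 7975 WT-only and 9891 KO-only sites. The shared sites were the stronger ones: their median normalised tag count was 22.6 in WT against 16.8 at WT-only sites, and 36.7 in KO against 21.2 at KO-only sites. Shared sites also lay nearer to genes' starts, with 29.3% of shared WT sites within 1 kb of a start site against 21.3% of WT-only sites, and 29.6% against 23.4% for KO.

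Sharing climbed with strength in both lists. In 4 equal groups of WT sites from weakest to strongest, 26.5%, 34.8%, 45.1% and 61.1% were called in KO. In the KO list the shares were 12%, 23.4%, 42.2% and 69.3%. Of the 100 strongest sites, 78 in WT and 89 in KO were called in the other genotype, and counting a neighbour within 1000 bp as well brought these to 87 and 96. Genotype-only sites were therefore on the whole the weaker ones of each list.

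**Figure D1:**
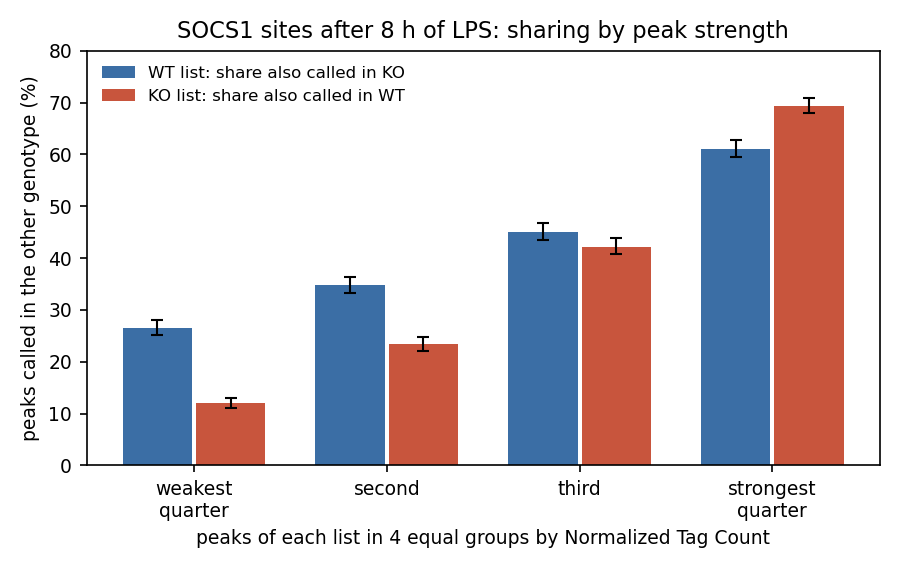
Share of sites called in the other genotype (percent, vertical axis) for 4 equal groups of sites ordered by normalised tag count, WT and KO lists, with exact 95% intervals for counting error. The share climbs from 26.5% to 61.1% in WT and from 12% to 69.3% in KO.

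Many genotype-only sites sat beside a site of the other genotype. A KO centre lay within 1000 bp of 1975 WT-only sites (24.8%), and a WT centre within 1000 bp of 1649 KO-only sites (16.7%). The strongest unshared site of either list is an example, linked to Cdc37 and to Tyk2, the JAK kinase of interferon receptors. There the WT peak chr9:21135846-21136106 (208.2) and the KO peak chr9:21136114-21136488 (206.5) miss each other by 8 bp. The same held at Tgif1, a homeobox repressor of TGF-beta signalling (173.5 in WT, 162.1 in KO, 124 bp apart), and between Wdr81 and Tlcd2 (195.6 and 177.6, 187 bp apart). The WT site of 124.6 by Brd2 and H2-DMa lay 551 bp from a KO peak of 234.2, and that of 115.1 by Ccl3 and Ccl4 lay 259 bp from one of 87.5. Likewise the KO sites at Capza2 (141.5) and at Ap3d1 and Dot1l (137.0) had WT peaks 229 and 128 bp away.

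Other strong sites of 1 genotype had no close partner. In WT one was at B9d2, Tmem91 and Tgfb1, the last a macrophage-restraining cytokine (143.5, nearest KO centre 8179 bp away). Another was at Il10rb, a subunit of the IL-10 and type III interferon receptors (140.4, 9773 bp). Further WT sites stood at Ctu1 and Siglece, the latter an inhibitory lectin (128.8, 24517 bp), at Ddx54, Iqcd and Rita1 (127.8, 29397 bp) and at F830045P16Rik (126.7, 25019 bp). In KO they were at Caprin1, an RNA-binding protein (183.4, 11748 bp, centred at -450 bp from the start site), and at Dcaf11, a ubiquitin ligase adaptor (157.6, 18357 bp). Cdk15 (140.3), Anapc7, a subunit of the anaphase-promoting complex (138.3, centred at -360 bp from the start site), and Fam20b with Tor3a (134.5) complete the 10 strongest KO-only sites.

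Peak position around start sites differed between the lists. Of WT sites within 1 kb of a start site, 25.8% were centred between -400 and -200 bp from it and 9.22% 200 to 400 bp after it. For KO these shares were 20.0% and 21.1%. Among KO-only sites 516 (23%) fell in the downstream window, against 136 (8.23%) of WT-only sites. That window took 13.2% and 12.5% of such sites in the SOCS1 lists of untreated and 30 min WT cells and 15.5% and 19.5% in KO. In the p65 lists it took 7.35% to 19.7%, without one order of the genotypes. The caller's peak width differs between the lists as given above, and its part in these positions was not tested.

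At the 5742 paired sites the deposited count was higher in KO at 4924 (85.8%). The median KO to WT ratio was 1.57, or 0.651 on the log2 scale, and counts of the pairs correlated across sites with r = 0.705, as a description of sites that share their 2 libraries. In KO 1636 sites (28.5%) were at least 2-fold higher and 29 (0.505%) at least 2-fold lower. KO peaks were 1.44 times wider, 0.523 on the log2 scale. Per bp of peak, the median ratio was 1.09 (0.129 on the log2 scale), with 427 sites (7.44%) at least 2-fold higher and 201 (3.5%) lower. Centred on the median, 286 (4.98%) were higher and 305 (5.31%) lower. The median excess in KO and the difference in width have the same sign, and the part of width in the excess was not tested.

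**Figure D2:**
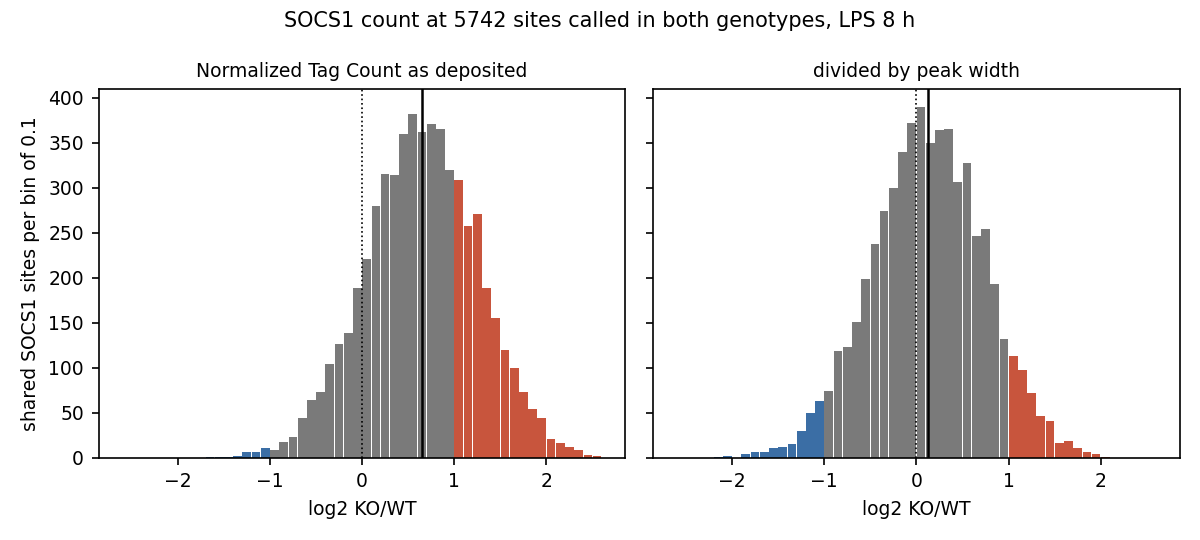
Number of paired sites (vertical axis) by log2 KO to WT ratio of the normalised tag count (horizontal axis), as deposited and divided by peak width. The deposited ratios centre on 0.651 and the ratios per bp on 0.129.

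The excess was spread over the chromosomes, and it was smaller in some of the 5 other KO and WT list pairs than in others. Chromosome medians ran from 0.57 to 0.737 on the log2 scale. At those of the paired sites that were also paired in the p65 lists of 8 h, the median KO to WT log2 ratio of p65 was 0.554 over 3491 sites. At 30 min the SOCS1 antibody gave 0.539 over 2084 sites, and in untreated cells 0.7 over 1035 sites. In these 3 pairs the KO list has the wider peaks: 493 against 239 bp for p65 at 8 h, 396 against 227 bp for SOCS1 at 30 min and 414 against 343 bp in untreated cells. The pair of untreated cells had the largest of these medians and not the largest difference in width. In the p65 pairs of 30 min and of untreated cells, KO peaks are the narrower ones (222 against 254 bp and 353 against 359 bp). Their medians were 0.0322 over 3562 and 0.0302 over 492 of the paired sites. The part of width in these medians was not tested.

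The strongest paired site stood at Cic, a transcriptional repressor downstream of MAPK signalling (349.1 in WT, 510.9 in KO, ratio 1.46, 1.26 to 1.7). A site on chromosome 3 with no gene within 10 kb had 198.2 and 392.5. Blcap with the imprinted Nnat (283.4 and 244.5) and Mllt6 (212.9 and 219.4) were about level in the 2 libraries. Higher in KO were Lcn2, the siderophore-binding lipocalin of the antibacterial response, with Ptges2 (166.1 and 247.7), and Brd2 with H2-DMa (147.2 and 234.2). So were Nr1d1 with Thra (151.9 and 211.0) and Csrnp1 (125.1 and 251.6). The highest ratio among these sites was at Igf2r, the mannose-6-phosphate receptor (108.3 and 281.8, ratio 2.6, 2.05 to 3.32).

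Among sites of at least 30 in both lists, those lowest in KO lay by genes of several kinds. Rack1 with Trim41 had 91.0 in WT and 35.4 in KO, a ratio of 0.389 (0.248 to 0.609). Dhtkd1 with Upf2 had 142.5 and 57.9, a ratio of 0.406 (0.282 to 0.571). Xcr1, the chemokine receptor of cross-presenting dendritic cells (83.1 and 34.7), Src, the tyrosine kinase (75.2 and 34.7), and Zc3h12d, an RNase of the regnase family (76.2 and 33.5), were also among the 10 lowest. Get3 with Trir (78.9 and 32.2), Cyb5r3 with Poldip3 (82.0 and 35.4), the B-cell adaptor Blnk (77.8 and 37.3) and Itsn1 (93.6 and 45.7) had ratios of 0.408 to 0.488. The last of the 10 was the site by the monocyte chemokine genes Ccl2 and Ccl7, at 154.6 and 83.0, a ratio of 0.537 (0.398 to 0.729).

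At the other end was the site of Actr1a, a dynactin subunit, and Sufu, a brake on hedgehog signalling. It had 32.1 in WT and 146.1 in KO, a ratio of 4.55 (3.0 to 6.93), and 1.66 per bp on the log2 scale. Ralgds (32.6 and 142.2) and Immt with Mrpl35 (30 and 126.1) had ratios of 4.36 and 4.2. F830045P16Rik (33.1 and 128.0), Cdc42ep2 (35.2 and 135.1), the acetyltransferase gene Kat7 (40.0 and 152.5) and Trim12a (32.1 and 121.6) were also among the 10 highest. Lcp1, the leukocyte actin bundler plastin (30.5 and 110.7), and the fatty-acid oxidation pair Hadha and Hadhb (32.1 and 115.2) ended the list, at 3.63 and 3.59.

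Any site was linked to 38.6% of protein-coding genes in WT and to 44.6% in KO. By gene, 7130 of 21887 protein-coding genes (32.6%) had a site in both genotypes, 1318 (6.02%) in WT only, 2624 (12%) in KO only and 10815 (49.4%) in neither. Of those with sites in both, 5138 (72.1%) had a site that overlapped between the lists. The highest count of a gene was higher in KO for 5993 of the 7130 genes (84.1%), with a median of 0.625 on the log2 scale. Per bp of peak it was higher in KO for 4006 genes (56.2%), and after centring on the median of the shared sites for 3468 (48.6%). Counts given for a gene below are the highest of its sites in each list, which need not overlap, and a ratio with its interval is given only for overlapping sites. Gene lists were read against these values. In all, 480 list members were found: 335 (69.8%) had sites in both genotypes, 31 (6.46%) in WT only, 46 (9.58%) in KO only and 68 (14.2%) in neither. The shares with a site in a single genotype are near those of all genes.

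**Figure D3:**
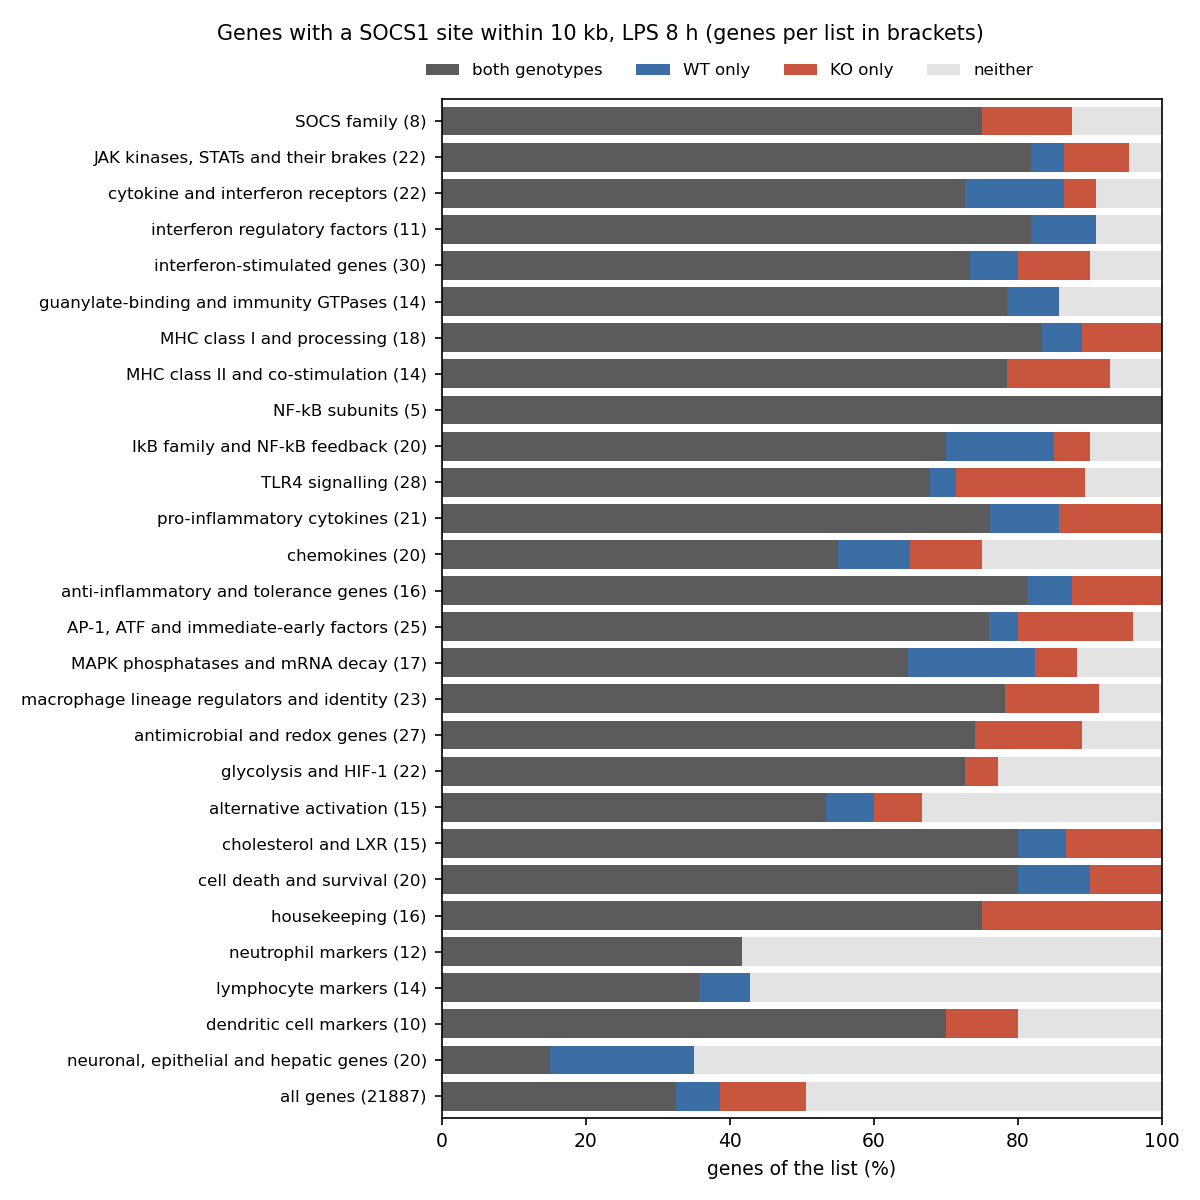
Share of the members of each gene list, and of all genes (percent, stacked horizontal bars), with SOCS1-antibody sites at 8 h in both genotypes, WT only, KO only or neither. Most members of the signalling lists have sites in both, while the neuronal, epithelial and hepatic list has 13 of 20 in neither.

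SOCS family genes had some of the larger KO to WT ratios. Of 8 members, 6 had sites in both genotypes, 1 in KO only and 1 in neither, and all 6 had the higher count in KO. Their median was 1.15 on the log2 scale against 0.625 for all genes, and 5 of 6 remained higher per bp of peak (median 0.624 against 0.102), the exception being Socs4. Besides Socs1 and Cish, Socs3, the main brake on IL-6 signalling, had 49.4 in WT and 84.9 in KO at different sites: the KO peak was centred at -404 bp from the start site, and the strongest of 4 WT peaks 9338 bp after it. Socs5 (16.8 and 37.3) and Socs2, the regulator of growth hormone signalling (10.5 and 23.2), were higher in KO by over 2-fold, and Socs4 was about level at different sites (16.3 and 17.4). Socs7 was called in KO only (17.4), and Socs6 in neither.

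JAK kinases, STATs and their brakes had sites in both genotypes at 18 of 22 genes, with 14 higher and 4 lower in KO and a median of 0.98 on the log2 scale (11 and 7 per bp, median 0.457). Kinase genes differed among themselves: Tyk2 had 208.2 and 206.5, while Jak1 (26.4) and Jak2 (42.5) were called in KO only. The Jak2 site was centred at -857 bp from the start site and the nearest WT peak lay 27890 bp away. Among STAT genes, Stat2, a subunit of ISGF3 (46.8 and 92.6), and Stat3, the effector of IL-6 and IL-10 (32.1 and 63.1), were higher in KO. Stat5a and Stat5b have the same highest counts, 15.8 in WT and 47.6 in KO at different sites. The site called in both genotypes had 15.8 and 38.6 (ratio 2.44, 1.28 to 4.89). Stat6, the IL-4 effector, was lower in KO at its strongest site (124.6 and 97.8, ratio 0.785, 0.583 to 1.06), an interval that includes no difference. Its other shared site, over the promoter, was higher in KO (42.1 and 80.4, ratio 1.91, 1.25 to 2.9).

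Genes of phosphatases and adaptors that end JAK signalling followed both patterns. Ptprc, encoding CD45, had 50.5 in WT and 131.3 in KO (ratio 2.6, 1.83 to 3.75), the adaptor Sh2b3 had 37.3 and 106.8 (2.86, 1.93 to 4.44) and Ptpn11, encoding SHP-2, 24.7 and 77.9 (3.15, 1.98 to 5.49). Ptpn1 had 72.6 and 101.0. Ptpn6, encoding SHP-1, was lower in KO at its strongest site (114.6 and 84.9, ratio 0.741, 0.537 to 1.02), an interval that includes no difference. Its other shared sites were higher in KO (14.7 and 42.5, 11.6 and 20.6). Pias1, a SUMO ligase that restrains STAT signalling, had highest counts of 54.7 and 30.9 at different sites. Both of its shared sites were lower in KO. They had 54.7 and 17.4 (ratio 0.318, 0.169 to 0.603), and 40.0 and 30.9 (0.772, 0.444 to 1.32). Pias3 was called in WT only (14.2), centred at -271 bp from its start site, and Pias2 in neither.

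**Figure D4:**
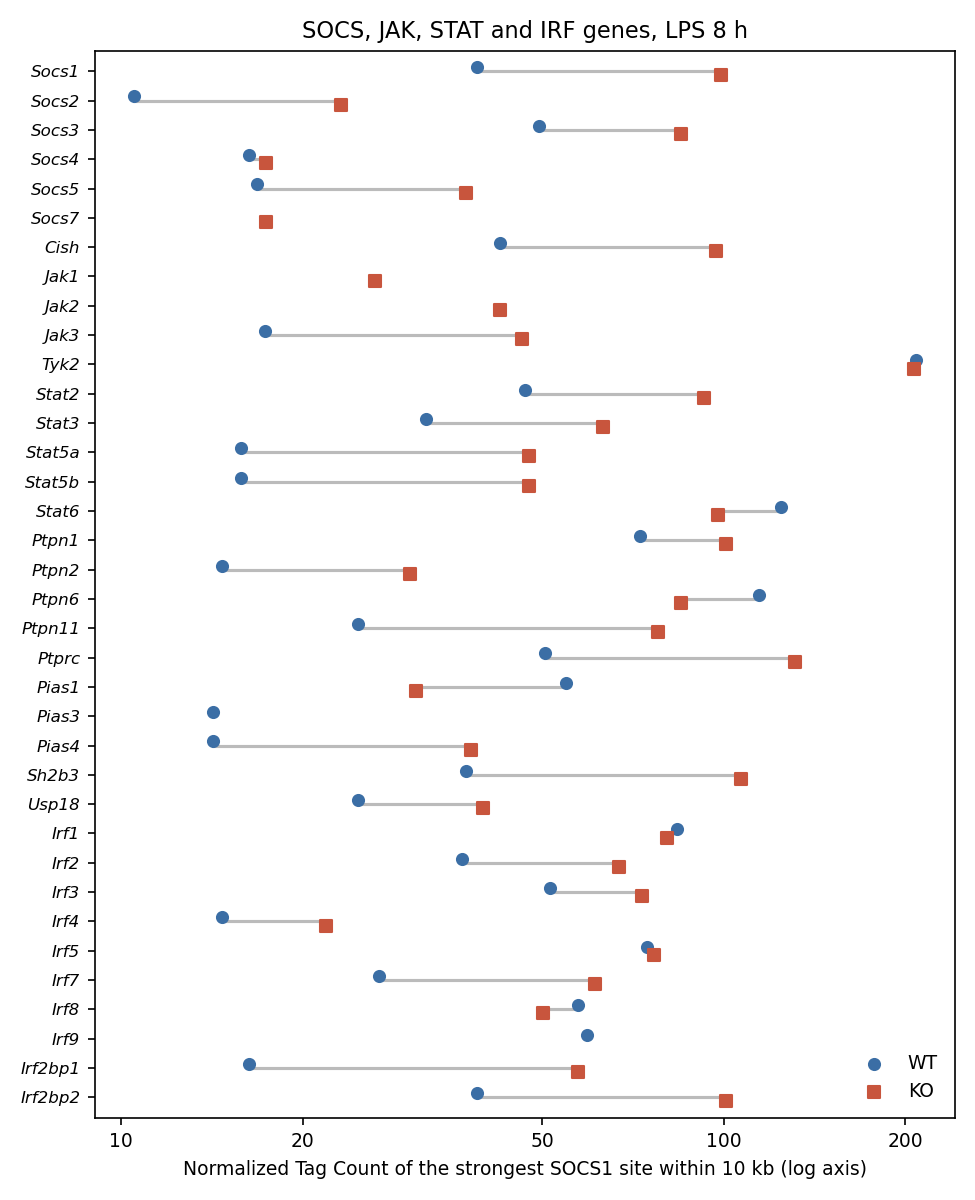
Highest normalised tag count (horizontal axis, log scale) of SOCS, JAK, STAT, brake and IRF genes in the WT and KO lists of 8 h; a missing point means no site was called. Socs1, Cish, Ptprc and Sh2b3 are among the genes with KO counts over 2-fold above WT, and Tyk2 is level.

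Cytokine and interferon receptor genes had sites in both genotypes at 16 of 22, 13 of them higher in KO (10 per bp; median 0.685 on the log2 scale as deposited). Ifngr2 (28.4 and 79.1), Ifnar2 (47.8 and 78.5) and Il6ra (25.2 and 69.5) were among them, and Il10ra had 46.3 and 60.5. Il10rb went the other way by its highest counts (140.4 and 78.5), which are at different sites, the WT value being the isolated site given above. Its shared sites were higher in KO. They had 32.6 and 78.5 (ratio 2.41, 1.54 to 3.84), and 47.8 and 54.7 (1.14, 0.752 to 1.82). Il6st, encoding gp130 (13.1), Csf2ra (31.0) and Tnfrsf1a (16.8) were called in WT only, and Tgfbr1 (14.2) in KO only. Over promoter windows, from 250 bases before to 50 after a start site, Ifnar1, Ifnar2, Il2rg and Il6st had a peak in WT only, Ifngr1 and Il4ra in both, and none of the 17 with a window in KO only. The Il2rg peak overlapped a KO peak outside the window (17.9 and 29.0). Over all 17492 genes with a window, 6.42% had a promoter peak in both genotypes, 6.37% in WT only and 7.6% in KO only, and in 15.4% and 15.7% of the latter groups the peak overlapped one of the other genotype outside the window.

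Interferon regulatory factor genes had sites in both at 9 of 11, with a list median of 0.575 on the log2 scale as deposited, 0.0523 per bp and -0.0763 centred on the shared sites. Irf2bp2 (38.9 and 101.0), Irf7, the amplifier of type I interferon (26.8 and 61.1), Irf2 (36.8 and 66.9) and Irf3, the factor TLR4 activates through TRIF (51.5 and 73.3), were higher in KO. Irf1 (83.6 and 80.4), Irf5 (74.7 and 76.6) and Irf8 (57.3 and 50.2) were about level. Irf9 was called in WT only, at the promoter site printed above.

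Of 30 interferon-stimulated genes, 22 had sites in both genotypes, and all 22 had the higher deposited count in KO (median 0.609 on the log2 scale). Per bp 15 were higher and 7 lower, and centred on the shared sites 10 were higher and 12 lower. Ifi204 (56.8 and 86.2), Adar, the RNA-editing enzyme (23.7 and 78.5), Ifit2 (41.0 and 74.6), Ifit3 (30.5 and 74.6) and Trim25 (47.8 and 73.3) are examples, with Tor3a the extreme (13.7 and 134.5, at different sites). At its shared site Tor3a had 13.7 and 19.3 (ratio 1.41, 0.627 to 3.22). Isg20, an exonuclease (32.1), and Zbp1, the Z-nucleic acid sensor (30), were called in WT only, with the nearest KO peaks 319855 and 199401 bp away. Rsad2, encoding viperin (45.7), the antibody receptor Trim21 (32.2) and the RNA sensor Ifih1 (23.2) were called in KO only.

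Over the promoters of interferon-stimulated genes the WT list had a peak at 8 and the KO list at 5 of 24 genes with a window. Over all genes with a window these counts were 2238 and 2453 of 17492. Ifi35, Ifi44, Ifit1, Ifit3, Isg15 and Oasl1 had one in WT only, Ifit2, Ifitm3 and Trim25 in KO only, and Adar and Ifi205 in both. At Ifit1 the WT peak was centred 138 bp after the start site (43.6) and the KO peak at -496 bp (49.5). At Oasl1 a shared site had 41.0 and 59.8. The WT promoter peaks of Ifit3 (30.5 in WT and 74.6 in KO) and Ifi44 (14.7 and 19.9) overlapped KO peaks that lie outside the window, so these are shared sites.

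Genes of the guanylate-binding and immunity-related GTPases, effectors of interferon-gamma, were the list with the lowest ratio among those of interferon signalling. Sites were called in both genotypes at 11 of 14 genes, 5 higher and 6 lower in KO, with a median of -0.105 on the log2 scale (3 higher and 8 lower per bp). Gbp2 was about level at a shared site (70.5 and 82.4). At sites that do not overlap between the lists, Gbp6 (55.2 and 32.2) and Gbp4 (36.8 and 18.7) were lower in KO, and Gbp3 was about level (76.8 and 71.4). Gbp5 was higher in KO by its highest counts (32.1 and 56.6, at different sites). At its shared site it was also higher in KO (30.5 and 56.6, ratio 1.86, 1.14 to 3.08). Gbp9 was called in WT only (36.8). Neighbouring members of this family are similar in sequence and share sites, so counts of single members are uncertain.

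Antigen presentation genes mostly had the higher deposited count in KO, less clearly so per bp. MHC class I and processing genes had sites in both at 15 of 18, 13 higher and 2 lower in KO as deposited and 8 and 7 per bp. Psme1 and Psme2, the proteasome activator pair, share a site of 97.8 and 208.5 (ratio 2.13, 1.64 to 2.78), Tap1 and Psmb9 one of 68.9 and 93.3, and B2m had 31.0 and 83.6 (2.7, 1.75 to 4.41). H2-T23, encoding Qa-1, was lower in KO at different sites (102.0 and 32.2). Calr was called in WT only (23.1), and Pdia3 (38) and Erap1 (16.1) in KO only. MHC class II and co-stimulation genes had 11 of 14 in both, all 11 higher in KO as deposited, 8 per bp and 5 when centred. H2-DMa, the peptide editor (147.2 and 234.2), and Pdcd1lg2, encoding PD-L2 (56.8 and 95.9), led them, and Cd74, the invariant chain (30.9), and H2-DMb1 (15.4) were called in KO only.

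All 5 NF-kB subunit genes had sites in both genotypes, 4 higher in KO as deposited and 3 per bp. Rela, which encodes p65, had 20.0 in WT and 63.1 in KO (ratio 3.16, 1.82 to 5.68), Relb 27.9 and 63.1 (2.26, 1.36 to 3.7) and Rel 25.2 and 54.0 (2.14, 1.27 to 3.7). Nfkb2 had 57.8 and 80.4, and Nfkb1 49.4 and 46.3. Subunit genes therefore had a higher median than all genes (1.1 on the log2 scale), with only 5 members.

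Inhibitors and feedback genes of NF-kB had sites in both at 14 of 20, with a median of 0.49 as deposited that turned to -0.033 per bp, both on the log2 scale. The strongest were Tnip1, a partner of A20 (152.5 and 121.6), Zc3h12a, encoding regnase-1 (123.6 and 155.1), Nfkbid (87.3 and 76.6), Bcl3 (76.8 and 106.2), Traf1 (49.9 and 99.1) and Nfkbiz (51.5 and 78.5). Pdlim2 (17.9), Itch (16.8) and Cyld (12.6), which act through ubiquitin to end NF-kB signalling, were called in WT only and Rnf11 (15.4) in KO only. Nfkbia, the IkB-alpha gene, had a site in neither list.

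Genes of TLR4 signalling had sites in both at 19 of 28 and in KO only at 5, with 1 in WT only. Their median log2 ratio was 0.364 as deposited and -0.159 per bp. The receptor gene Tlr4 had 11 and 39.9, its co-receptor Cd14 30.5 and 67.6, Traf3 37.9 and 77.9, and the TRIF gene Ticam1 129.3 and 119.0. Chuk (25.7), Irak4 (24.4), Traf6 (15.4), Tollip (14.2) and Irak1 (12.9), called in KO only, were all below the KO list's 38 that begins its strongest group. Map3k7, encoding TAK1, was called in WT only at 9.99.

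Cytokine and chemokine genes sat below the general KO to WT level. Pro-inflammatory cytokine genes had sites in both at 16 of 21, with a median log2 ratio of 0.315 as deposited and -0.208 per bp, where 4 of the 16 were higher and 12 lower. Csf3, encoding G-CSF (57.3 and 116.5, ratio 2.03, 1.46 to 2.94), Il23a (56.3 and 92.6) and Il1b (71.5 and 95.2) were higher in KO, and Tnf with its neighbour Lta lower at different sites (81.5 and 52.8). Ebi3 (47.8 and 63.1) and Il27 (55.7 and 61.1), which encode the subunits of IL-27, differed little. Il12a (29.4) and Tnfsf10 (16.3) were called in WT only, and Lif (16.7), Ifnb1 (15.4) and Csf2 (14.8) in KO only.

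Chemokine genes had sites in both at 11 of 20, with a median log2 ratio of 0.373 as deposited and -0.15 per bp, where 2 were higher and 9 lower. Ccl3 and Ccl4 share sites with top counts of 115.1 and 163.4, Ccl5 had 68.3 and 102.9 (ratio 1.51, 1.07 to 2.12), and Ccl2 with Ccl7 the 154.6 and 83.0 given above. Ccl12 had 91.5 and 83.6 at different sites, and 64.7 and 83.6 at its shared site (ratio 1.29, 0.892 to 1.85). Ccl9 was called in WT only, with 4 sites and a highest count of 48.4. It also had sites in the SOCS1 lists of untreated (46.2) and 30 min (45.7) WT cells and in the p65 list of WT cells at 8 h (108.1), and none in the KO lists of the same antibodies and times. Ccl17 (17.3) was called in WT only, and Cxcl9 (22.5) and Ccl22 (18.0) in KO only.

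Genes of anti-inflammatory and tolerance factors had sites in both at 13 of 16. Tgfb1 was lower in KO only at different sites (143.5 and 67.6), and its shared sites had 56.8 and 67.6, and 27.3 and 39.9. Siglece was level at different sites (128.8 and 126.1) but had 49.4 and 126.1 at its shared site (ratio 2.55, 1.78 to 3.69). The efferocytosis receptor gene Axl was higher in KO (86.7 and 130.0). Il10 was called in WT only at 11.6, and the inhibitory receptor Lilrb4a (60.5) and the IL-1 decoy receptor Il1r2 (21.9) in KO only. Immediate-early factors had 19 of 25 in both and 4 in KO only, namely Klf6 (79.1), Atf3, a stress-induced repressor of LPS genes (54.7), Maff (21.2) and Egr3 (18.7), against Mafk (16.3) in WT only. Junb (78.9 and 181.4, ratio 2.3, 1.73 to 3.09), Fosb (41.0 and 110.7) and Batf (118.3 and 157.0) had the highest counts. Among MAPK phosphatase and mRNA decay genes 3 phosphatases, Dusp2 (34.7), Dusp6 (24.2) and Dusp5 (12.1), were called in WT only and Zfp36l1 (32.8) in KO only, while Zfp36, encoding tristetraprolin, had 97.3 and 129.3.

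Macrophage identity genes had sites in both genotypes at 18 of 23, none in WT only and 3 in KO only, among them Cebpb (45.0) and Ctsd (21.9). The median log2 ratio was 0.317 as deposited and -0.206 per bp. Spi1, the master regulator PU.1, had its highest WT count at a WT-only site (82.0). Its highest KO count was at a shared site, with 30.5 in WT and 48.3 in KO (ratio 1.58, 0.963 to 2.7). Mitf was lower in KO at its strongest site (129.9 and 73.3, ratio 0.564, 0.404 to 0.776). Its other shared sites were all higher in KO (46.3 and 62.4, 32.6 and 61.1, 24.7 and 37.3, 16.8 and 41.2). Adgre1, encoding F4/80, was lower in KO at different sites (45.7 and 19.3), and Cd68 (52.6 and 74.6) and Ctsb (24.2 and 86.9) were higher. Fcgr1 was level (74.1 and 72.1). Peaks show antibody signal on chromatin and not expression, so they name no cell type. Sites in both genotypes stood at 78.3% of the macrophage identity genes and 32.6% of all genes. The share was 5 of 12 (41.7%) for neutrophils, 5 of 14 (35.7%) for lymphocytes and 7 of 10 (70.0%) for dendritic cells. It was 3 of 20 (15.0%) for neuronal, epithelial and hepatic genes, the only one of these lists below the share of all genes. Members of these other lists had no promoter peak in either genotype.

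Antimicrobial and redox genes had sites in both at 20 of 27, with none in WT only and Sod2, the mitochondrial superoxide dismutase (74.6), Nos1 (46.3), Sod1 (22.5) and Arg1 (14.8) in KO only. Lcn2 was given above. The NADPH oxidase genes Rac2 (57.8 and 149.9, ratio 2.59, 1.86 to 3.63) and Ncf4 (42.1 and 106.2) were higher in KO and so was the site by the start of Cyba (43.1 and 102.3, ratio 2.37, 1.6 to 3.53), while its other shared site had 109.4 and 95.2. Over promoters 0 of 19 had a peak in WT only, against 6.37% of all genes with a window. In KO only it was 5 of 19 (Cyba, Gclm, Prdx5, Slc11a1 and Sod1), against 7.6%. At Cyba, Prdx5 and Slc11a1 that KO peak overlapped a WT peak that lies outside the window. Nos1, the gene the design text names, had sites in the KO lists of untreated (37.9), 30 min (53.3) and p65 8 h (147.3) libraries and in none of the WT lists alongside them. The KO peaks show that those stretches of Nos1 were present in KO cells.

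Other lists were described alike. Pgk1 was the 1 glycolysis gene called in KO only (50.8), with 16 of 22 in both. Of alternative activation genes 8 of 15 had sites in both, with Igf1 (18.4) in WT only and Clec10a (14.8) in KO only. Cholesterol genes had 12 of 15 in both, with Abcg1 (31.5) and Apoe (15.4) in KO only. Cell death genes had 16 of 20 in both, with Bcl2a1b (32.1) and Ripk3 (9.46) in WT only and Mlkl, the executioner of necroptosis (47.0), and Pycard (15.4) in KO only. Housekeeping genes, taken for comparison, had 12 of 16 in both and 4 in KO only, with a median log2 ratio of 0.744 (0.221 per bp), above that of most immune lists.

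Motif shares over promoter windows were mostly close between the classes of peak. ISRE matches stood in 4.97% (3.83 to 6.32) of windows with a WT-only peak, 4.95% (3.79 to 6.34) with a peak in both, 3.42% (2.56 to 4.46) with a KO-only peak and 3.35% of all 21263 windows. For GAS the shares were 8.73%, 7.97%, 6.9% and 7.69% in the same order, and for kappaB 24.4%, 27.1%, 27.9% and 23%. ETS matches stood in 15.5% (13.5 to 17.6) of WT-only and 11.8% (10.3 to 13.6) of KO-only windows, against 13.6% of all. AP-1 matches were less frequent under peaks of every class (4.53% to 5.06%) than in all windows (6.99%). The windows with peaks were also richer in G and C, at 59.3% to 60.7% against 56.2%, and the part of base composition in these shares was not tested.

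The remaining 10 lists show where the 8 h sites recur. Shared sites were called widely: 81.8% of shared WT peaks overlapped a p65 peak of WT cells at 8 h and 69.3% one of KO cells, and 1.67% overlapped no other list. WT-only sites overlapped the p65 list of WT cells at 8 h in 55.0% and that of KO cells in 35.9%. KO-only sites did so in 46.9% and 48.0%. The p65 and SOCS1 lists of a genotype and treatment were called against the same IgG library, the p65 lists hold 31007 (WT) and 25811 (KO) peaks, and the KO p65 peaks are the widest of all. The part of these in the shares was not tested.

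In the SOCS1 lists of 30 min, WT-only sites were met about as often in KO as in WT cells, and KO-only sites more often in KO. WT-only sites overlapped the 30 min list of WT cells in 31.1% and that of KO cells in 31.5%, and KO-only sites in 24.8% and 32.0%. In untreated cells WT-only sites gave 16.4% (WT) and 25.7% (KO), and KO-only sites 14% and 26.2%. The untreated KO list holds 24270 peaks of 414 bp, against 9438 of 343 bp in WT. At 30 min the KO list holds 19931 peaks of 396 bp and the WT list 19631 of 227 bp. The part of list length and peak width in these shares was not tested. In none of the 4 other SOCS1 lists were 41.3% of WT-only and 44.9% of KO-only sites, against 17.4% of shared WT peaks.

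**Figure D5:**
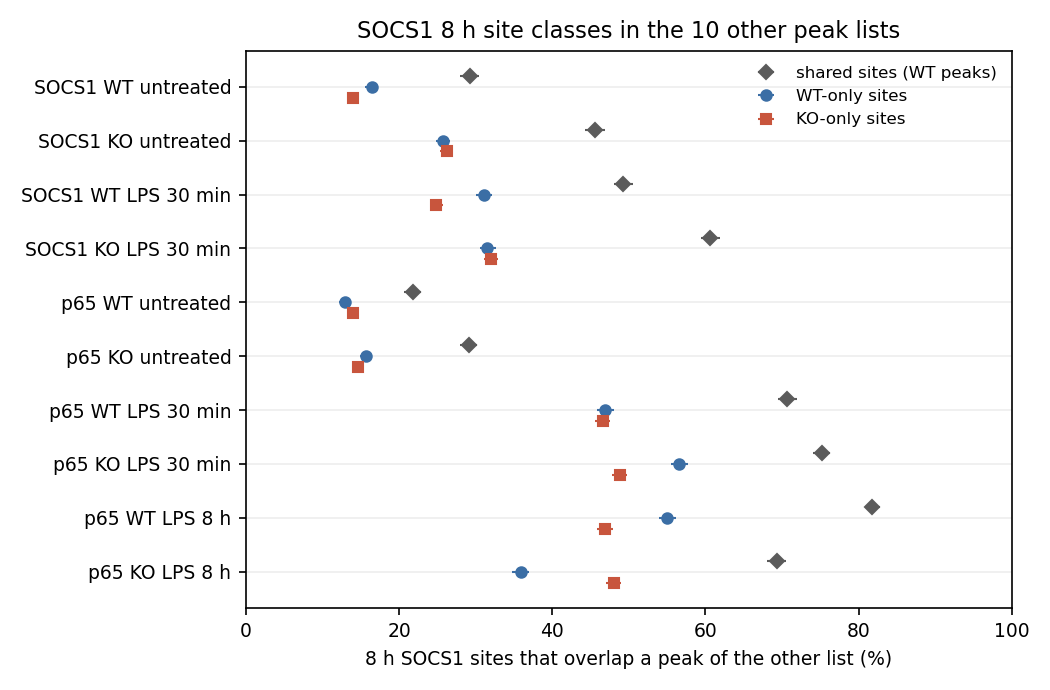
Share (percent, horizontal axis) of shared, WT-only and KO-only SOCS1 sites of 8 h that overlap each of the 10 other peak lists by at least 1 bp, with exact 95% intervals for counting error. Shared sites lead in every list, and WT-only sites differ most from KO-only sites in the p65 lists of 8 h.

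The same count was made by gene. Of the 1318 genes with sites in WT only at 8 h, 722 (54.8%) had SOCS1 sites in both genotypes at 30 min, 165 (12.5%) in WT only and 250 (19%) in KO only. Of the 2624 genes in KO only at 8 h, 52.9% were in both at 30 min, 486 (18.5%) in KO only and 311 (11.9%) in WT only. Over all genes the 30 min shares were 40.3%, 7.4% in WT only and 10.7% in KO only. With p65 antibody at 8 h, 19.9% of the WT-only genes had sites in WT only and 5.24% in KO only, while the KO-only genes had 9.3% and 12.3%, against 6.52% and 6.07% of all genes.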

How the data were processed

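Per the submitters' processing notes, cutadapt, Bowtie2 2.4.1, HOMER 4.11 and mm10 were used. Per the file headers, findPeaks called each list from 1 library, with the matching IgG library as background, at an FDR of 0.001, 4-fold over IgG and over the local 10 kb (Poisson p 0.0001) and 1 tag per bp. The signal is the authors' tag count of a peak scaled to 10000000 tags, or the IgG tags under it. The score is the authors' findPeaks score, which is not scaled. The ratio is the authors' deposited fold over IgG, local or clonal background. The p-value and the fraction (focus ratio) are the authors' deposited values and were not used further. An E. coli spike-in in the labels was not used.

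Peaks were paired by largest overlap and linked to 21887 protein-coding genes of the RefSeq mm10 table. Promoter windows (21263, of 17492 genes) came from RefSeq. Intervals are Clopper-Pearson or exact binomial on tag counts, at 95%. The members and all 27 gene lists (480 of 481 genes matched, Cxcl11 not) were chosen with earlier results of these data known. Genes named were the 10 strongest sites of each genotype alone, the 10 highest and 10 lowest ratios at counts of at least 30 in both, the 10 strongest shared sites, and list members called in 1 genotype or strongest in both. Scripts were tested on simulated peaks and run with Python 3.11.15, numpy 2.4.6, pandas 2.3.3 and scipy 1.17.1. Whether the libraries came from separate animals is not given in the sources used here. Some genes that the naming rule would list are not reported here.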

Additional observations from a re-analysis of the deposited data

Results flagged for a closer look

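Genes with a SOCS1 site in a single genotype sometimes had it in the opposite genotype at 30 min. Of genes in WT only at 8 h, 250 were in KO only at 30 min, and of genes in KO only at 8 h, 311 were in WT only at 30 min. The difference between the times was not tested, since each list is 1 library. Among list members, Ripk3 had 9.46 in WT at 8 h and 73.6 in KO at 30 min, Dusp6 24.2 and 59.3, Il10 11.6 and 38.4, and Dusp2 34.7 and 30.7. In the other direction Tollip had 14.2 in KO at 8 h and 14.9 in WT at 30 min, H2-DMb1 15.4 and 13.9, Arg1 14.8 and 13.3, and Hprt 18.0 and 9.24.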

How the results depend on the processing

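No paired analysis was possible because each genotype has 1 library. The share of WT sites called in KO, and of KO sites in WT, was 36.9% and 32.4% with centres within 200 bp, 36% and 31.6% with overlap of at least 50% of the narrower peak, 35.6% and 33.8% with peaks at least 8-fold over local background, 40.5% and 40.5% with lists of equal length, and 46.6% and 46.6% among the 5000 strongest of each. Centres within 500 bp gave 47.8% and 41.6%, and within 1000 bp 56.3% and 47.3%, both chosen after seeing the data. At paired sites, centring on the median gave a median log2 ratio of 0.0, 286 sites higher in KO and 305 lower; dividing by width gave 0.129, 427 and 201; the scaled score gave 0.603 with 3 lower; counts of at least 30 gave 0.477, 362 and 11; and a 1.5-fold limit gave 3106 and 136. With peaks at least 8-fold over local background, 4123 genes had sites in both genotypes and 2178 in WT only. Of list members, 64 were in WT only with a 1 kb link and 19 with 25 kb. Without genotype-only sites that have a neighbour within 1000 bp, a setting added after seeing the data, 30.5% of KO-only sites overlapped the SOCS1 KO list of 30 min and 46.8% the p65 KO list of 8 h. The other totals moved by less than their interval or by less than 1.5 times, but counts of single gene lists did not all: of 81 (in both, WT only and KO only for 27 lists), 38 moved by more than that with a 1 kb link, 27 with 25 kb and 10 with lists of equal length. With a 1 kb link, pro-inflammatory cytokine genes with sites in both genotypes went from 16 to 6 and chemokine genes from 11 to 5. Linked within 25 kb, 805 of the 1318 genes in WT only (61.1%) and 1809 of the 2624 in KO only (68.9%) kept that state. The lowest score in both lists was 10 tags, which limits what could be called.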

Other observations

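Firre, a long non-coding RNA gene of the X chromosome that anchors chromatin contacts and is built of repeats, was looked at after its values were seen. It held 13 WT and 9 KO sites at 8 h, with summed normalised tag counts of 595.7 and 1349.0. Of its 9 paired sites, 6 were at least 2-fold higher in KO, and the median log2 ratio was 1.55 (1.02 per bp), against 0.651 for all paired sites and 0.625 for the 103 on the X chromosome. The sums were 1101 in WT and 2617 in KO in untreated cells and 615.2 and 668.4 at 30 min. A pair of its sites has identical counts, 62.0 in WT and 241.3 in KO, so reads of repeat copies cannot be told apart there.

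Strong unshared sites with no peak of the other genotype within 10 kb, again picked by their values, included Gsk3b, a kinase of Wnt and insulin signalling (119.7 in KO, 93 bp after its start site), and Farsb, a tRNA synthetase subunit (112.6 in KO, centred at -20 bp from it, with the nearest WT centre 170092 bp away). In WT they included Fnip1, a regulator of lysosomal nutrient sensing (104.6), and Asap1 (102.5).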
